A study of Mus musculus with 12 samples.

Results

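Transcripts of 10 genes that encode chemokines and leukocyte adhesion molecules were followed in sorted islet cells of female NOD mice, in which diabetes develops by autoimmunity. The genes were the chemokines Cxcl1, Cxcl9, Cxcl10, Cxcl12, Cxcl16, Ccl2, Ccl5 and Cx3cl1 and the adhesion molecules Icam1 and Vcam1, taken as the rows of the count table whose Ensembl identifiers map to these symbols. All 10 were found among the 52962 gene identifiers of the table. Of the 15598 genes that passed the filter on low counts, 9 were members of this set, and Ccl5 fell under the filter.

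The 12 samples formed 4 groups of 3 replicates, which were β-cells and non-β-cells, each taken at 4 weeks and at 8 weeks of age. The labels give the genotype as NOD throughout and no treatment, and the study's methods name the strain as NOD/ShiLtJ. Per those methods each replicate pooled several mice, islets had been kept in culture overnight and dispersed by enzyme, and cells were sorted by autofluorescence after CD45-positive cells were set aside, so that infiltrating leukocytes were not meant to be in any sample. In the study's account, 4 weeks marks early myeloid infiltration and 8 weeks intense infiltration by leukocytes. The study states that its samples were biologically independent, which the labels do not give.

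The samples held between 13755106 and 27040652 estimated counts. Insulin 2 (Ins2) averaged 32960 CPM (scaled counts, in which each library sums to about the same total) in 4-week and 64870 CPM in 8-week β-cells, beside 568.5 and 1587 CPM in the non-β fraction. Glucagon (Gcg) averaged 6904 and 1989 CPM in the β fraction and 108600 and 122900 CPM in the non-β fraction. Ins2 was thus above Gcg in the β fraction and Gcg above Ins2 in the non-β fraction. The non-β fraction also held markers of other cells. Its summed CPM of 10 endothelial markers ranged from 55.5 to 100 at 4 weeks and from 423.5 to 1128 at 8 weeks. All 10 markers rose by limma-voom, as did 11.6% of all genes. The same sums in β-cells were 7.89 to 17.0 and 15.03 to 18.05. The 6 pan-leukocyte markers summed to at most 1.59 CPM in any sample, and the CD45 gene Ptprc was at 0 in every β-cell sample at 8 weeks and averaged 0.454 and 0.0433 CPM in non-β-cells at 4 and 8 weeks. The 10 macrophage and dendritic cell markers summed to 29.7 to 78.65 CPM, with Cd68 and C1qa alone above 1 CPM. Mean Cd68 went from 48.8 to 69.6 CPM in β-cells and from 9.15 to 16.5 in non-β-cells. Mean C1qa went from 7.86 to 4.59 CPM in β-cells and from 26.5 to 29.7 in non-β-cells. By limma-voom both Cd68 changes were called (adjusted p = 0.0136 and 0.0106) and neither C1qa change was (0.145 and 0.715). The B cell gene Cd79a averaged 3.08 and 3.59 CPM in β-cells at 4 and 8 weeks. The 5 neutrophil markers there summed to at most 0.0509 CPM at 4 weeks and 0.648 to 2.53 CPM at 8. The source of these counts was not tested. The 4-week samples numbered 3 lay apart from their group in both fractions, with chi-square values, divided by their degrees of freedom, of 86.7 and 94.8 against the other β-cell samples, which gave 26.3 between them, and of 41.1 and 49.3 in non-β-cells against 12.4. Each result was also computed without them.

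Chemokines are small secreted or membrane-bound proteins that bind G protein-coupled receptors on leukocytes and direct their migration. Adhesion molecules on the vessel wall, among them ICAM-1 and VCAM-1, bind leukocyte integrins and hold the cells before they cross into tissue. Many of these genes are induced by interferons through STAT and IRF factors and by IL-1β or TNF through NF-κB, and islet cells are known to release several of the proteins during insulitis, the infiltration of islets by leukocytes.

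In the GRCm38 build (GENCODE M21 annotation), several members lay on shared chromosomes. Cxcl1 (ENSMUSG00000029380, chromosome 5, 90891241 to 90893115, plus strand), Cxcl9 (ENSMUSG00000029417, chromosome 5, 92321347 to 92328079, minus strand) and Cxcl10 (ENSMUSG00000034855, chromosome 5, 92346638 to 92348889, minus strand) shared a chromosome. So did Cxcl16 (ENSMUSG00000018920, chromosome 11, 70453983 to 70459984, minus strand), Ccl2 (ENSMUSG00000035385, chromosome 11, 82035571 to 82037453, plus strand) and Ccl5 (ENSMUSG00000035042, chromosome 11, 83525778 to 83530518, minus strand). Cxcl12 (ENSMUSG00000061353) lay on chromosome 6 from 117168535 to 117181367, plus strand. Cx3cl1 (ENSMUSG00000031778) lay on chromosome 8 from 94772009 to 94782427, plus strand. Icam1 (ENSMUSG00000037405) lay on chromosome 9 from 21015985 to 21028817, plus strand. Vcam1 (ENSMUSG00000027962) lay on chromosome 3 from 116109949 to 116129688, minus strand.

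Promoter sequences are shown for the 3 members whose upstream bases held a searched motif, which were Cxcl1, Cxcl10 and Icam1. RefSeq sequences (GRCm38.p6) were at hand for 6 of the 10 members, and the 250 bases before the start site were searched on both strands. Cxcl16, Ccl2, Ccl5 and Vcam1 had no sequence at hand and were not searched. The motifs were the core of the interferon-stimulated response element (TTTC, then 2 bases of any kind, then TTTC), the STAT-binding GAS element (TTCNNNGAA) and the κB consensus, with overlapping matches kept. Matches are in capitals.
Cxcl1 (chr5:90890995-90891244, plus strand): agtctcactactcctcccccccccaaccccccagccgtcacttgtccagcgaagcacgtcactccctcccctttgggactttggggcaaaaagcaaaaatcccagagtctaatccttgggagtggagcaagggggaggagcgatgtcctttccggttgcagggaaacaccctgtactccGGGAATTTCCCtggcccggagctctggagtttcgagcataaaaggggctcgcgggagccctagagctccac
Cxcl10 (chr5:92348890-92349139, minus strand): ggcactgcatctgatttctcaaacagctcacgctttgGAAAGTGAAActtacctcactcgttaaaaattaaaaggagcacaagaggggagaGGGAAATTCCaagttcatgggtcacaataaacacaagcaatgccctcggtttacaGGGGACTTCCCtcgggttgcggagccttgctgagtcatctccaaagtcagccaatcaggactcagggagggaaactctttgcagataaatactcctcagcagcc
Icam1 (chr9:21015690-21015939, plus strand): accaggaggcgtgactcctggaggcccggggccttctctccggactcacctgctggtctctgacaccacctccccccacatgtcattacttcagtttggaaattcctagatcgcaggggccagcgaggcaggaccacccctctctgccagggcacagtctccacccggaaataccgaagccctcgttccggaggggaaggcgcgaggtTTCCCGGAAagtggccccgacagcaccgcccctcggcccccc
Counted back from the start site, the Cxcl1 window held a κB match from base 71 to 62 and an overlapping one on the opposite strand from 70 to 61. The Cxcl10 window held the interferon element on the opposite strand from base 213 to 204, and κB matches from 159 to 150 and, overlapping each other, from 104 to 94. Icam1 had a GAS match from base 42 to 34. The windows of Cxcl9, Cxcl12 and Cx3cl1 had no match to these letters. Of all 32851 promoter windows searched in the same way, 2.98% held the interferon element, 7.02% the GAS element and 7.25% the κB consensus. A match describes the letters and is not evidence of a bound factor.

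Across the 4 groups, 9 of the 10 members had their highest level in non-β-cells at 8 weeks, and for each of the 9 every sample of that group lay above every other sample. The exception was Cxcl16, whose 3 highest samples were β-cells at 4 weeks. In bulk samples a change in the number of cells of a type and a change in RNA per cell cannot be told apart, which holds for every comparison given here.

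**Figure D1:**
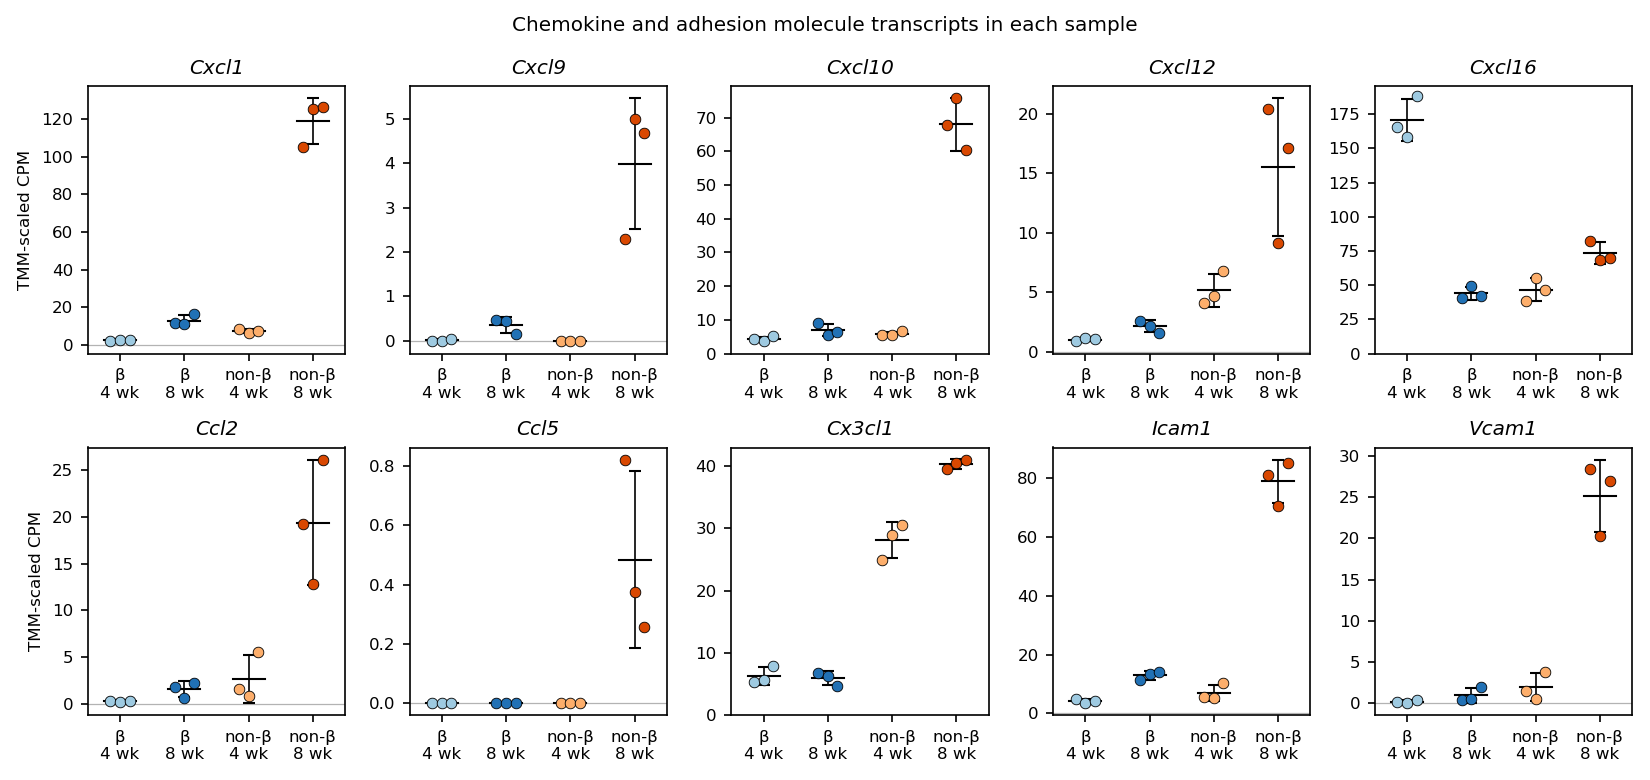
Level of each of the 10 genes in TMM-scaled CPM (vertical axes, linear, each with its own scale) in the 12 samples, grouped by fraction and age, with points for replicates and bars for the mean and SD of 3. For 9 genes the non-β-cells at 8 weeks stand above all other samples, and for Cxcl16 the β-cells at 4 weeks do. Cxcl9 passed the filter only through the 8-week non-β samples, and Ccl5 was not tested.

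The neutrophil attractant Cxcl1, which acts through CXCR2, was low at 4 weeks and rose in both fractions. The 4-week β-cell samples had 1.88, 2.66 and 2.80 CPM, and the 8-week ones had 11.5, 11.2 and 16.2 CPM. In non-β-cells the samples had 8.30, 6.12 and 7.54 CPM at 4 weeks and 105, 125.5 and 126.5 CPM at 8 weeks. No group overlapped another of the same age or fraction. The log2 change with age was 2.38 ± 0.31 (SE) in β-cells (limma-voom, adjusted p = 0.000222), and for non-β-cells it was 4.01 ± 0.19 (adjusted p = 7.68e-08). The rise in β-cells was smaller by 1.63 ± 0.36 on the log2 scale (interaction, adjusted p = 0.0195), a call lost without β-cell replicate 2 at 4 weeks (adjusted p = 0.0813) or replicate 3 at 4 weeks (0.0616).

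Cxcl10, an interferon-induced ligand of CXCR3, a chemokine receptor of activated T cells, was at like levels in 3 of the groups and far higher in the fourth. β-cell samples had 4.33, 3.84 and 5.09 CPM at 4 weeks and 8.93, 5.58 and 6.42 CPM at 8 weeks. Non-β samples had 5.47, 5.63 and 6.61 CPM at 4 weeks and 67.9, 75.8 and 60.3 CPM at 8 weeks. The 8-week non-β samples thus stood apart from the other 9, which lay close together. The log2 change in non-β-cells was 3.52 ± 0.19 (limma-voom, adjusted p = 1.97e-07). In β-cells it was 0.62, with a 95% interval from 0.09 to 1.16 and an adjusted p of 0.102, and although the ages did not overlap the change did not pass the test. It did pass by edgeR (adjusted p = 0.031), by DESeq2 (0.0162) and with sample quality weights (0.0374). The interaction for Cxcl10 was −2.90 ± 0.31 (adjusted p = 0.000178) and was called under each of 21 alternatives.

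Cxcl9, a further interferon-induced CXCR3 ligand, was counted almost only in non-β-cells at 8 weeks, with 53, 67 and 91 counts or 2.29, 5.01 and 4.68 CPM. The β-cell samples had 0, 0 and 1 counts at the younger age and 10, 12 and 4 counts at the older, and each 4-week non-β sample had 0. Against a floor of 3 counts in each 4-week non-β library, Cxcl9 was at least 29.2-fold higher in non-β-cells at 8 weeks (limma-voom, adjusted p = 0.0008). The 8-week β-cell samples all lay above the 4-week ones, yet the fitted log2 difference of 3.40 rested on 26 counts against 1 and had an adjusted p of 0.0946, with a pass by edgeR (adjusted p = 0.0206), by DESeq2 (0.0086), with sample quality weights (0.0115) and with no filter on low counts (0.0151). Cxcl9 passed the filter only through the 8-week non-β samples, so its entry into the test already required a difference, and without any one of those samples it could not be fitted.

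Cxcl12, the broadly expressed ligand of CXCR4 made by stromal and vascular cells, ranged from 0.865 to 1.11 CPM in the 4-week β-cell samples and from 1.60 to 2.59 CPM in the 8-week ones. The non-β samples had 4.09, 4.65 and 6.75 CPM at 4 weeks and 20.4, 9.11 and 17.1 CPM at 8 weeks. Cxcl12 was therefore higher in every non-β sample than in any β-cell sample. It rose with age in non-β-cells (log2 change 1.65 ± 0.30, limma-voom adjusted p = 0.00189). In β-cells the log2 change of 1.01 had an interval from −0.42 to 2.44 (adjusted p = 0.325), and passed by DESeq2 (adjusted p = 0.0366). The difference between the 2 changes was −0.64, with an interval from −2.21 to 0.93.

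Among the CC chemokines, Ccl2, which recruits monocytes through CCR2, had 0.311, 0.198 and 0.321 CPM in the 4-week β-cell samples and 1.80, 0.603 and 2.21 CPM in the 8-week ones. Non-β samples had 1.57, 0.783 and 5.57 CPM at 4 weeks and 19.3, 12.8 and 26.1 CPM at 8 weeks. The 4-week non-β samples were spread widely, with replicate 3 the highest, and still lay under the whole 8-week group. The log2 change was 3.35 ± 0.55 in non-β-cells (limma-voom, adjusted p = 0.000837), whereas β-cells had 2.20 ± 1.31 (adjusted p = 0.278). Without replicate 3 of the 4-week non-β group the non-β change was 4.04 (adjusted p = 0.00158). The β-cell change passed by edgeR (adjusted p = 0.0402) and by DESeq2 (0.00346).

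Ccl5, a T cell and monocyte attractant made largely by T cells, was at 0 in the 9 samples of the other groups and had 19, 5 and 5 counts in non-β-cells at 8 weeks, or 0.822, 0.374 and 0.257 CPM. Its mean there was at least 3.55-fold above the floor of 3 counts per library in non-β-cells at 4 weeks and at least 3.90-fold above that in β-cells at 8 weeks. It was not tested. The 9 T and NK cell markers summed to 1.04, 0.0747 and 1.13 CPM in the same 8-week non-β samples, with Cd3g, Nkg7, Gzmb and Ncr1 at 0, and their part in the Ccl5 counts was not tested.

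Cxcl16 and Cx3cl1 are the chemokines made as transmembrane proteins, which can hold cells bearing CXCR6 or CX3CR1 and can be shed by ADAM proteases. Cxcl16 had 166, 158 and 188 CPM in the 4-week β-cell samples and 40.3, 49.3 and 42.2 CPM in the 8-week ones. In the non-β fraction it had 38.4, 55.6 and 46.5 CPM at the younger age and 82.6, 68.2 and 69.8 CPM at the older. Cxcl16 thus fell in β-cells, by 1.96 ± 0.14 on the log2 scale or 3.89-fold in mean CPM (limma-voom, adjusted p = 1.86e-06). In the non-β fraction it rose by 0.67 ± 0.14 (adjusted p = 0.00561). The changes in opposite directions differed by −2.63 ± 0.20 (interaction, adjusted p = 1.19e-05), under each of 21 alternatives. Zmynd15, which overlaps Cxcl16 on the opposite strand, moved likewise, from 6.84 to 2.82 mean CPM in β-cells and from 0.990 to 3.11 in non-β-cells. The libraries were stranded per the study's methods, whether kallisto was run with a strand option is not given in the sources used here, and Zmynd15 had 466 counts beside 11355 for Cxcl16 over the 3 β-cell samples at 4 weeks.

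Cx3cl1, or fractalkine, behaved otherwise than Cxcl16 in β-cells. The β-cell samples had 5.29, 5.63 and 7.84 CPM at 4 weeks and 6.80, 6.26 and 4.69 CPM at 8 weeks, with the ages overlapping. The log2 change in β-cells was −0.08, with an interval from −0.57 to 0.40 (limma-voom, adjusted p = 0.833). Non-β samples had 24.8, 29.0 and 30.6 CPM at 4 weeks and 39.5, 40.6 and 41.1 CPM at 8 weeks, a log2 change of 0.53 ± 0.13 (adjusted p = 0.0117). That call was lost by edgeR (adjusted p = 0.0592) and without non-β replicate 1 at 4 weeks (log2 change 0.41, adjusted p = 0.0863).

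Icam1, the ligand of the leukocyte integrin LFA-1, rose in both fractions. β-cell samples had 4.937, 3.607 and 4.404 CPM at 4 weeks and 11.3, 13.3 and 14.2 CPM at 8 weeks (log2 change 1.61 ± 0.26, limma-voom adjusted p = 0.0011). Non-β samples had 5.70, 5.24 and 10.2 CPM at 4 weeks and 81.0, 70.8 and 85.1 CPM at 8 weeks (3.57 ± 0.21, adjusted p = 3.11e-07). Neither fraction's ages overlapped, and the β-cell change was the smaller by 1.96 ± 0.33 on the log2 scale (interaction, adjusted p = 0.00403).

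Vcam1, which binds the integrin α4β1 of lymphocytes and monocytes, was rare in β-cells, with 13 counts over the 3 samples at 4 weeks. It had 0.153, 0.0793 and 0.367 CPM at 4 weeks and 0.370, 0.528 and 2.01 CPM at 8 weeks there, and the log2 change of 2.05 ± 1.31 did not pass the test (limma-voom, adjusted p = 0.314), though it passed by DESeq2 (0.0183). Non-β samples had 1.53, 0.489 and 3.80 CPM at 4 weeks and 28.4, 20.2 and 26.9 CPM at 8 weeks. All of the latter lay above all of the former, with a log2 change of 4.13 ± 0.52 (adjusted p = 0.000117). That change was 3.44 without non-β replicate 2 at 4 weeks and 4.76 without replicate 3 (adjusted p = 0.000293 and 0.000339).

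Counted together, the age comparison in β-cells called 2 members higher (Cxcl1 and Icam1) and 1 lower (Cxcl16) among the 9 tested. Over all 15598 genes 17.9% were called, 8.59% as higher and 9.35% as lower, and 40.3% had ages that did not overlap, as 8 of the 9 tested members did. In the non-β fraction the 8 tested members other than Cxcl9 were all called higher. Cxcl9 was called as well, but it had entered the test only through the 8-week non-β samples. There 16.4% of all genes were called, 11.6% as higher and 4.8% as lower, and 32.8% had ages that did not overlap, as these members did. The median log2 change of the 8 members without Cxcl9 was 1.31 for β-cells, beside 0.018 over all genes, and 3.44 for the non-β fraction, beside 0.012. The interaction was called for 4 of the 9 (Cxcl1, Cxcl10, Cxcl16 and Icam1), each with the less positive change in β-cells. Of all genes 5.13% had an interaction called, made up of 3.33% in that direction and 1.8% in the other. For Vcam1, Ccl2, Cxcl9, Cxcl12 and Cx3cl1 the difference between the changes was not called, with adjusted p from 0.213 to 0.73.

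**Figure D2:**
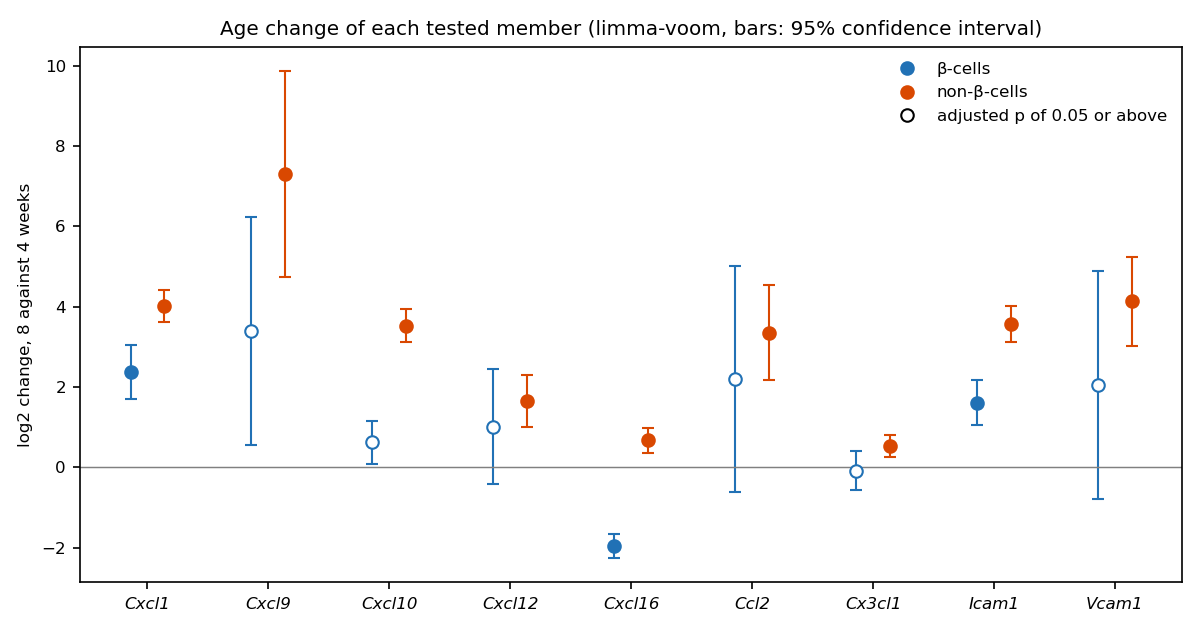
Log2 change from 4 to 8 weeks (vertical axis) of the 9 tested genes in both fractions, with limma-voom 95% confidence intervals and open symbols where the adjusted p was 0.05 or above. All 9 non-β estimates are above 0 (Cxcl9 by its way through the filter), while in β-cells Cxcl16 is at −1.96 and the intervals of Ccl2, Cxcl9 and Vcam1 are wide.

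The fractions were then compared at each age. At 4 weeks Cxcl16 was higher in β-cells by 1.89 ± 0.14 on the log2 scale (limma-voom, adjusted p = 2.66e-07), or 3.65-fold in mean CPM. Cx3cl1 (−2.17 ± 0.18, adjusted p = 9.64e-07), Cxcl12 (−2.27 ± 0.60, adjusted p = 0.0077) and Cxcl1 (−1.58 ± 0.33, adjusted p = 0.00159) were lower in β-cells. These made 1 higher and 3 lower of 9 tested members, in a comparison that called 48.5% of all genes, 24.9% higher and 23.7% lower, and in which 53.1% did not overlap, as 8 of the 9 did. When replicate numbers entered as a block, the count was 7 rather than 4, since Vcam1 (−3.09, adjusted p = 0.00672), Ccl2 (−3.07, adjusted p = 0.00168) and Icam1 (−0.70, adjusted p = 0.0356) then passed as lower in β-cells. Without the block these 3 had adjusted p of 0.0649, 0.0942 and 0.0779. Over all genes 7570 were called without the block, and at most 9158 under any alternative, the block among them. Cxcl10 differed by −0.42 (interval −0.98 to 0.14) and Cxcl9 had 1 count in all 6 samples.

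At 8 weeks the 8 tested members other than Cxcl9 were all lower in β-cells, Cxcl16 included, with no overlap between the fractions. Cxcl9 was lower too, which its way through the filter required. Of all genes 49.2% were called at this age, 23.6% higher and 25.6% lower in β-cells, and 64.9% did not overlap. The differences ran from −0.75 ± 0.14 for Cxcl16 (limma-voom, adjusted p = 0.000857) to −5.04 ± 0.66 for Vcam1 (adjusted p = 3.84e-05), and non-β-cells had 26.04 times the mean CPM of β-cells for Vcam1, 9.75 times for Cxcl10, 9.19 times for Cxcl1 and 6.10 times for Icam1. The Vcam1 ratio depended on β-cell replicate 3, without which it was 56.1 times (log2 difference −5.74, adjusted p = 0.000463), and the Ccl2 difference of −3.87 was −3.24 without β-cell replicate 2 (adjusted p = 0.00118). The order of Cxcl16 between the fractions thus turned between 4 and 8 weeks. These comparisons share their samples with the age comparisons and are not independent of them.

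Levels were also ranked between genes per kilobase of exon. In β-cells at 4 weeks Cxcl16 led with 56.5 ± 5.14 CPM per kb (SD, n = 3), and the next, Cxcl10, had 1.96 ± 0.28 CPM per kb, with overlap from there down through Cx3cl1, Cxcl1 and Icam1 between neighbours. At 8 weeks the β-cell order was Cxcl16 (14.6 ± 1.58), Cxcl1 (6.90 ± 1.49), Cxcl10 (3.10 ± 0.77) and Icam1 (2.97 ± 0.34), of which Cxcl10 and Icam1 overlapped. Non-β-cells at 4 weeks were led by Cxcl16 (15.5 ± 2.85), Cx3cl1 (7.16 ± 0.75) and Cxcl1 (3.90 ± 0.59), none of which overlapped. At 8 weeks Cxcl1 led in non-β-cells with 63.5 ± 6.49 CPM per kb, followed by Cxcl10 (30.2 ± 3.44) and Cxcl16 (24.4 ± 2.62), which overlapped, and by Icam1 (18.1 ± 1.70) and Ccl2 (17.1 ± 5.88), which overlapped as well. Cxcl16 was thus the leading member in 3 of the 4 groups.

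Markers of vascular and stromal cells moved with age in the non-β fraction, as the members did. All 10 endothelial markers rose there, Pecam1 from 9.58 to 80.8 mean CPM, as did 7 of 8 pericyte and smooth muscle markers and 7 of 8 fibroblast markers. Over all genes 11.6% rose there. Summed CPM ranged from 20.4 to 58.3 at 4 weeks and from 97.0 to 152 at 8 weeks for the pericyte list, and from 98.3 to 275.8 and from 617.5 to 1003 for the fibroblast list. Duct markers went from 624.3–814.8 to 1982–2206 and acinar markers from 34.2–89.1 to 197–783.7 in the same samples. The part of these cells in the members' changes was not tested. The β fraction changed as well. By limma-voom 5 of 7 acinar, 2 of 6 duct and 5 of 8 β-cell markers were higher and 5 of 6 alpha cell markers lower at 8 weeks, with acinar sums of 90.1 to 190.5 CPM before and 438.6 to 914 after. Over all genes 8.59% were higher and 9.35% lower in the β fraction. None of 10 endothelial, none of 8 pericyte and 1 of 8 fibroblast markers was called there, with fibroblast sums of 3.65 to 14.5 CPM at 4 weeks and 25.9 to 52.0 at 8 weeks.

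Within the non-β samples at 8 weeks the order of the replicates differed between members. Replicates 1, 2 and 3 had endothelial sums of 1128, 423.5 and 615.7 CPM. Replicate 2, the lowest, also had the lowest Cxcl12, Vcam1, Ccl2, Icam1 and Cxcl16, but it had the highest Cxcl10 and Cxcl9. Ccl2 and Icam1 were highest in replicate 3, and Cxcl12, Vcam1, Cxcl16 and Ccl5 in replicate 1. Cxcl1 and Cx3cl1 were lowest in replicate 1. The 3 samples carry no test of these orders, and the part of vascular cells in them was not tested.

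**Figure D3:**
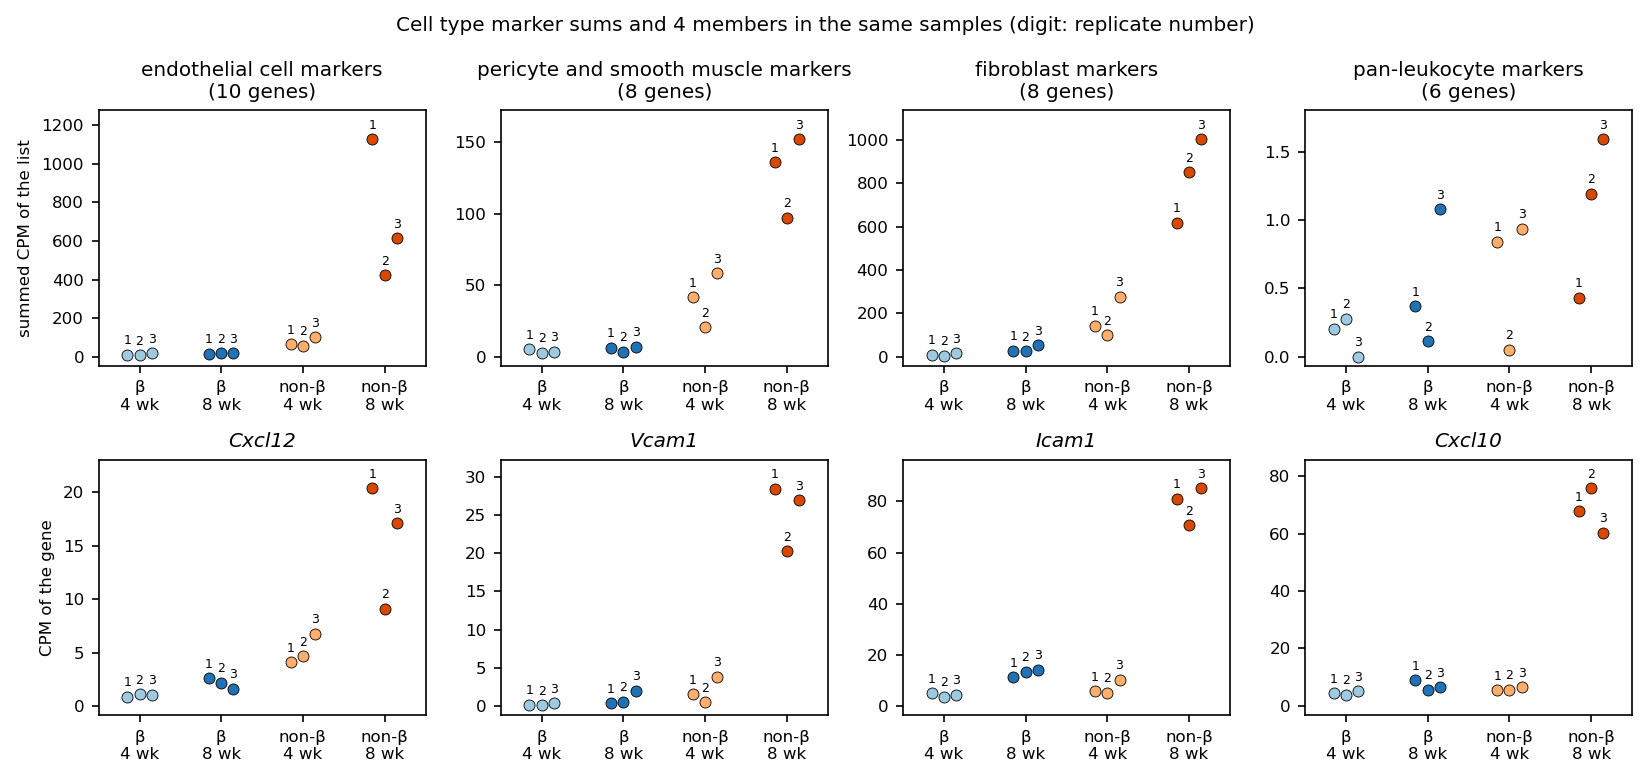
Summed CPM of 4 marker lists (upper panels) and CPM of Cxcl12, Vcam1, Icam1 and Cxcl10 (lower panels) in each sample, with digits for the replicate number. Endothelial, pericyte and fibroblast sums are highest in non-β-cells at 8 weeks, where replicate 2 has the lowest endothelial sum and the lowest Cxcl12 but the highest Cxcl10, and pan-leukocyte sums stay at or under 1.59 CPM.

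Other chemokines of the same families rose in non-β-cells. Of 11 further CXC and related chemokines 4 were tested, of which Cxcl3 and Cxcl5 passed the filter only through the 8-week non-β samples and so had to differ. The other 2 rose (limma-voom), and 0 of the 4 were called in β-cells. Over all genes 11.6% rose in non-β-cells and 17.9% were called in β-cells. Cxcl2, a CXCR2 ligand like Cxcl1, went from 1.51 to 24.2 mean CPM (log2 change 3.98, adjusted p = 6.78e-06), Cxcl14 from 1.34 to 21.6 (4.61, adjusted p = 0.00531), and Cxcl3, at 0 in every 4-week non-β sample, was at least 33.7-fold higher (adjusted p = 0.000567). Of 18 further CC chemokines 5 were tested and 3 were higher in 8-week non-β-cells, 2 of them (Ccl11 and Ccl7) having passed the filter only through those samples. The 3 were the eosinophil attractant Ccl11 (3.41, adjusted p = 0.0127), the monocyte attractant Ccl7 (1.86, adjusted p = 0.0206) and the epithelial chemokine Ccl28 (1.57, adjusted p = 0.000895). Ccl28 was also the 1 of these called in β-cells, from 6.29 ± 0.84 to 34.2 ± 2.39 CPM (SD, n = 3; log2 change 2.46 ± 0.23, adjusted p = 1.46e-05).

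The receptors that read most of these ligands were nearly absent. Of 23 chemokine receptors 19 were not tested, and none of the 19 exceeded 1.64 CPM in any sample. Cxcr3, Cxcr6, Cxcr1, Ccr3 and Ccr8 had no count in any of the 12 samples. Of the 4 tested receptors Ackr2 and Ackr3 passed the filter only through the 8-week non-β samples. The other 2, Cxcr4 and Ccrl2, rose in non-β-cells, and 0 of the 4 passed in β-cells. Over all genes 11.6% rose in non-β-cells, 17.9% were called in β-cells and 5.13% had an interaction called. Cxcr4, the receptor of Cxcl12, went from 3.96 ± 4.13 to 17.4 ± 6.44 CPM (log2 change 2.71, limma-voom adjusted p = 0.00167), and the Cxcl12 scavenger Ackr3 from 0.284 to 3.58 CPM (4.35, adjusted p = 0.00789). Ackr2, a scavenger of CC chemokines, was at least 13.8-fold higher (adjusted p = 0.000451). Ccrl2, which binds chemerin, showed the 1 interaction called in this list (−1.30, adjusted p = 0.0257).

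Of 18 further endothelial and junctional adhesion molecules 14 were tested. Icam2, Sele and Selp passed the filter only through the 8-week non-β samples, and of the other 11, 9 rose in non-β-cells. Over all genes 11.6% rose in non-β-cells and 8.59% in β-cells. The selectins Sele (0.434 to 3.54 mean CPM, log2 change 3.91, limma-voom adjusted p = 0.00577) and Selp (1.496 to 20.38, 3.69, adjusted p = 0.000535), which slow rolling leukocytes on activated endothelium, and the sialomucin Podxl (2.99 to 39.8, 3.75, adjusted p = 0.00036) had the largest changes. Pecam1, Cdh5 and Esam are in this list and in the endothelial marker list. In β-cells 3 of the 14 rose, Alcam by 0.66 (adjusted p = 0.00221), Jam3 by 0.57 (adjusted p = 0.035) and F11r by 0.33 (adjusted p = 0.0241), of which Jam3 and F11r encode junctional adhesion molecules. At 8 weeks the 11 were all lower in the β fraction, as were 25.6% of all genes.

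Of 11 leukocyte adhesion partners 5 were tested. Over all genes 11.6% rose in non-β-cells, and 8.59% rose and 9.35% fell in β-cells. The hyaluronan receptor Cd44 rose in non-β-cells (1.44, limma-voom adjusted p = 1.15e-05) and, by 0.73, among β-cells (adjusted p = 0.00413), and Itga9 rose in non-β-cells (1.91, adjusted p = 0.000527). Itgal, which encodes the α chain of LFA-1, the integrin that binds ICAM-1, had 6.06 ± 0.24 CPM (SD, n = 3) in 4-week β-cells and 0.364 ± 0.30 CPM in 4-week non-β-cells (adjusted p = 0.000117), and fell in β-cells to 3.55 ± 0.22 CPM (−0.77, adjusted p = 0.0404). Of 6 proteases that cut chemokines or adhesion molecules, Mmp9 passed the filter only through the 8-week non-β samples (0.181 to 26.7 mean CPM, adjusted p = 0.046). Of the other 5, 3 rose in non-β-cells, with Mmp2 (2.26, adjusted p = 0.00709) and Mmp14 (1.90, adjusted p = 0.000146) changing most, and 0 were called in β-cells by limma-voom.

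A list of 18 interferon, IL-1, TNF and NF-κB pathway genes, including feedback inhibitors, was tested in full. In non-β-cells 13 rose and 0 fell, and in β-cells 6 rose and 1 fell (limma-voom). Over all genes 11.6% rose and 4.8% fell in non-β-cells, and 8.59% rose and 9.35% fell in β-cells. The NF-κB feedback inhibitors Tnfaip3 and Nfkbia and the interferon regulatory factor Irf1 changed most in non-β-cells, from 77.5 to 543.5, from 93.1 to 631.6 and from 74.5 to 440.6 mean CPM (log2 changes 2.82, 2.79 and 2.57, adjusted p = 7.68e-08, 3.9e-07 and 2.41e-08). In β-cells Tnfaip3 (0.98, adjusted p = 0.00185), Nfkbia (0.87, adjusted p = 0.00436) and Irf1 (0.85, adjusted p = 0.000169) rose less. Rela, an NF-κB subunit, fell by 0.93 in β-cells (adjusted p = 0.000382), whereas non-β-cells showed a rise of 0.67 (adjusted p = 0.00259). The change was less positive in β-cells for 8 of the 18, and 0 were called the other way, beside 3.33% and 1.8% of all genes.

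**Figure D4:**
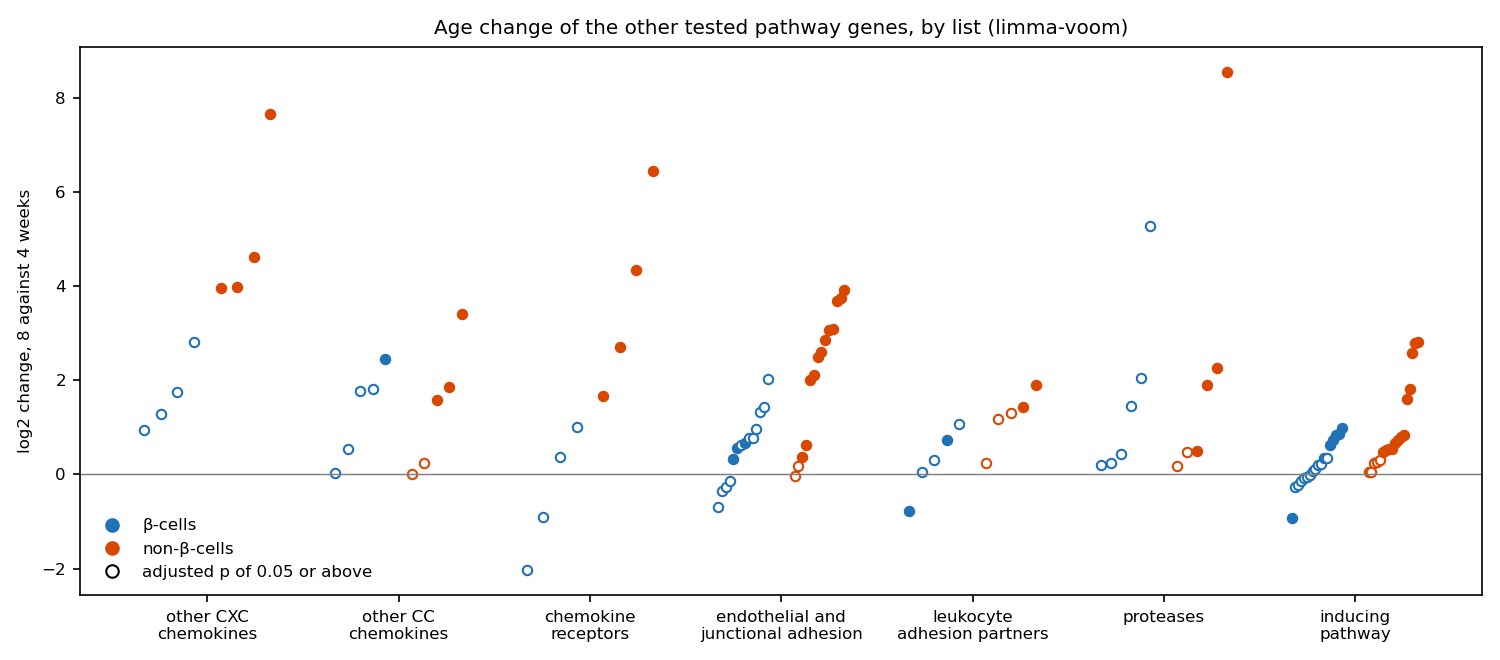
Log2 change from 4 to 8 weeks (vertical axis) of every tested gene of the 7 related lists (horizontal axis), in both fractions, with filled symbols where the limma-voom adjusted p was under 0.05. In non-β-cells all 4 tested CXC chemokines and all 4 tested receptors are filled and above 0, though 2 of each passed the filter only through the 8-week non-β samples, while the β-cell symbols of these lists are open.

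The genes whose log2 CPM followed each member most closely over the 12 samples were taken from 10171 genes with a symbol and a mean log2 CPM of at least 3. The samples share libraries and fall into 4 groups, so these correlations describe the group pattern. Cxcl10 was followed by H2-T23 (Pearson r = 0.986), Nfkbia (0.983) and Irf1 (0.98). Cxcl1 was followed by complement C3 and Slc25a25 (both 0.985) and by F11r (0.984). Cxcl9 was followed by H2-Q4 and Csf1 (both 0.972) and Elf3 (0.97), and Icam1 by Ahnak (0.983), Plat (0.979) and H2-K1 (0.977). H2-T23, H2-Q4 and H2-K1 are MHC class I genes, whose reads can be divided between near-identical copies. Vcam1 was followed by Osgin1 (0.975), AC160336.1 and the endothelial marker Pecam1 (both 0.969). Ccl2 was followed by Il11 (0.979), Vasn (0.969) and Inhba (0.963), and Cxcl12 by Pls3 and Srsf7 (both 0.979) and Tubb6 (0.978). Cx3cl1 was followed by Dbn1 and Pyy (both 0.991), and Cxcl16 by Ccng2 (0.979), Ppif (0.967) and Dedd2 (0.952).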

How the data were processed

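RNA was measured in 12 samples of sorted islet cells. Per the study's methods, the authors used fastp to filter the reads, kallisto to quantify Ensembl 98 transcripts (GRCm38) and tximport to sum these by gene, and they deposited estimated counts per gene, neither scaled nor filtered. The libraries were stranded. Versions, and whether kallisto used strand, are not given in the sources used here. From 14.0% to 19.3% of a sample's values were not whole, and they were rounded.

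Genes above 1 CPM in at least 3 samples were kept and scaled by TMM (edgeR 4.0.16). A model of the 4 group means was fitted with limma-voom (limma 3.58.1, R 4.3.3), which follows the study's methods. All tests were two-sided, with p-values adjusted by Benjamini-Hochberg over all 15598 genes, with 0.05 as the threshold. For the interaction, the age change of non-β-cells was subtracted from that of β-cells. Overlapping genes on opposite strands (Zmynd15 with Cxcl16, and low or uncounted ones with Cxcl10, Ccl2, Icam1 and Vcam1) were noted from GENCODE M21. With 13755106 to 27040652 counts per sample, levels under 1 CPM rest on few reads, and floors of 3 counts cover counting error only, while the intervals of fitted changes carry the spread between samples.

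The members, lists and tests were chosen with earlier results of these data known. The text names every member, up to 3 genes of largest change per list and age comparison among those that passed, and the 3 genes most like each member, of which 1 is not reported here. Irf1 and Ccrl2 in other comparisons, Cxcr4 and Itgal levels, Pecam1, Cdh5 and Esam, the receptors at 0 and the overlapping genes were named after their values were seen. The alternatives included DESeq2 1.42.0 and edgeR's quasi-likelihood test, other scalings, filters, weights, thresholds and sample sets, and the replicate number as a block.

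Replicate numbers come from the digit in the sample descriptions. At 4 weeks, deviations of the β and non-β samples that share a number correlated with r of 0.08 to 0.31 over all tested genes and 0.29 to 0.67 over genes with a mean log2 CPM of at least 3. Samples of unlike number gave −0.23 to 0.11 and −0.67 to 0.43, so these ranges overlapped. Every negative value involved a sample numbered 3, and β-cell sample 2 with non-β sample 1 gave 0.43. The values cannot tell whether equal numbers mark a pair. The blocked values that change a call are therefore given beside the unblocked fit of this comparison. On simulated counts for 15154 genes, the β-cell age comparison recovered 58.8% of 2-fold and 75.3% of 4-fold changes, with 4 false calls. The interaction recovered 28.9% and 66.0%, with 8 false calls. In the simulation every group had the gene's mean over all 12 samples as its base, and only 8-week β-cells were changed. Genes far rarer in β-cells than that mean, such as Vcam1, Ccl2 and Cxcl9, were not simulated at their β-cell levels. The recovered shares therefore do not apply to their β-cell changes.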

Additional observations from a re-analysis of the deposited data

Results flagged for a closer look

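The change with age differed between the fractions for 4 members by the interaction of the limma-voom model. The log2 difference of the changes, β-cells minus non-β-cells, was −2.63 for Cxcl16 (adjusted p = 1.19e-05), for which all 3 β-cell samples at 8 weeks lay below those at 4 weeks and all 3 non-β samples above theirs. It was −2.90 for Cxcl10 (adjusted p = 0.000178), −1.96 for Icam1 (adjusted p = 0.00403) and −1.63 for Cxcl1 (adjusted p = 0.0195). Over the alternatives the adjusted p ranged up to 0.000105 for Cxcl16, 0.00105 for Cxcl10 and 0.0202 for Icam1, and from 1.55e-06 to 0.0813 for Cxcl1, which passed in 18 of 21. Endothelial, pericyte and fibroblast markers moved with the non-β change, and their part in it was not tested.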

How the results depend on the processing

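Of the members' tested differences under each alternative, 927 kept their direction and their side of the threshold, 24 came to pass it, 5 ceased to pass it and 5 changed sign. In the β-cell age comparison 6 members passed by edgeR's quasi-likelihood test, 8 by DESeq2 and 5 with sample quality weights, against 3, and leaving out single replicates gave 3. Between the fractions at 4 weeks 7 passed by edgeR, by DESeq2, at an adjusted p under 0.10 and with the replicate block, against 4, and 4 to 6 without single replicates. Leaving out single replicates gave 8 to 9 members in the non-β age comparison, 8 to 9 between the fractions at 8 weeks and 3 to 4 for the interaction. The 8 came from Cxcl9 falling under the filter without an 8-week non-β sample or, in the age comparison, from Cx3cl1 without non-β replicate 1 at 4 weeks. Over all genes these fits gave 1810 to 3195, 6214 to 8478 and 455 to 979 calls. The sign of the Cx3cl1 change in β-cells turned to 0.10 with quality weights, 0.0828 without both 4-week samples numbered 3, 0.0837 without β-cell replicate 3 at 4 weeks and 0.0517 without β-cell replicate 3 at 8 weeks, and leaving out single replicates gave −0.1926 to 0.0837. That of Cxcl9 between the fractions at 4 weeks, over single replicates, ranged from −0.0072 (without β-cell replicate 3) to 0.8904. The Cxcl1 interaction did not pass without both 4-week samples numbered 3 (adjusted p = 0.0624). With no filter on low counts Cxcl9 passed in the β-cell age comparison (adjusted p = 0.0151) and the interaction (0.0378). Except where the filter removed a gene, the cause was not tested.

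Over all genes, requiring a 2-fold change left 867 of 2799 calls in the β-cell age comparison, 1389 of 2561 in non-β-cells, 3464 of 7570 and 3742 of 7679 between the fractions at 4 and 8 weeks and 469 of 800 for the interaction. Quality weights gave 5382 for β-cell age, and omission of a β-cell sample at 8 weeks 1695 to 1734. The interaction gave 1246 at an adjusted p under 0.10, 1562 by DESeq2, 2384 with quality weights, 2080 with the replicate block, 1468 without both samples numbered 3, and 455 to 979 without single replicates. The block changed no other member's call. At 8 weeks and between ages, same-numbered samples did not all correlate. For the fractions at 8 weeks r was −0.07 to 0.16, with a mean of 0.07 beside −0.04 for samples of unlike number. Such weak correlations cannot tell whether same-numbered samples came from a shared preparation. Depth limits Ccl5, Cxcl9, Vcam1 and Ccl2 in β-cells most, where samples held few counts.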
